A study of Mus musculus with 1049 samples.

Results

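Matrix proteases and their tissue inhibitors were followed over 3 ages in single fibroblasts from the dermis of C57Bl/6 mice. The group holds 10 genes out of 51777 in the count tables, taken by symbol: the metalloproteinases Mmp2, Mmp3, Mmp11 and Mmp14, the cysteine protease Ctsk, the ADAMTS proteases Adamts1 and Adamts5, and the inhibitors Timp1, Timp2 and Timp3. All 10 were found and all 10 passed the filter on low counts. The newborn group was 1.5 or 2.5 days of age, the young group 2 months and the old group 18 months, all of this strain with no further treatment given. Skin freed of its subdermis and digested with collagenase was sorted by antibodies against CD45, CD117, EpCam and CD31 and for CD34 and Pdgfra, and each cell was sequenced in its own well with Smart-seq2, which reads polyadenylated RNA along its length without molecular identifiers. The labels name 2 experiments and no mice, and the number and sex of the mice behind each age are not given for these cells. Reads of the 735 kept cells (249 newborn, 246 young, 240 old) were added by age and experiment into 6 sums of 119682449 to 195324769 reads, so n = 2 per age, and p-values measure only the spread between these sums.

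The dermis is built largely from fibrillar collagen, which fibroblasts both lay down and remove. Matrix metalloproteinases are zinc enzymes made as inactive precursors: Mmp14 sits in the cell membrane and, with Timp2 as a bridge, activates Mmp2, a gelatinase that cuts denatured and basement-membrane collagen, while Mmp3 (stromelysin 1) cuts many matrix proteins and activates other precursors, and Mmp11 (stromelysin 3) leaves the cell already active. Cathepsin K, from Ctsk, is an acid protease able to cut the intact collagen triple helix, and Adamts1 and Adamts5 cut proteoglycans such as versican and aggrecan. TIMPs bind metalloproteinases in a tight complex of equal parts; Timp3 is held in the matrix and also blocks ADAMTS enzymes, whereas none of the TIMPs is an inhibitor of cathepsin K, which cystatins such as Cst3 block.

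The 250 bases before the start of a gene, from RefSeq on build GRCm38.p6, were at hand for 8 members; Mmp2 and Adamts5 had no entry. Shown here are the 2 proteases whose levels stood furthest above newborn in adult cells, Mmp3 (chr9:7445572-7445821, plus strand) and Ctsk (chr3:95498960-95499209, plus strand), and for contrast Adamts1 (chr16:85803114-85803363, minus strand), whose level was highest in newborn cells. Each runs 5′ to 3′ on the gene's strand, and capitals mark matches on either strand of the AP-1 motif TGANTCA, the TATA box TATAAA and the PEA3 motif AGGAAG, none of which overlapped another.
Mmp3: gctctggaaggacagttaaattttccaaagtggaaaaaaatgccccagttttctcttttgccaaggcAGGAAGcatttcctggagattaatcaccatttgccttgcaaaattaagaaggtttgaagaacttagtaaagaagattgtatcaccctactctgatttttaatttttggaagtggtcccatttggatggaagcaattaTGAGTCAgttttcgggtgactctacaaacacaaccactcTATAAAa
Ctsk: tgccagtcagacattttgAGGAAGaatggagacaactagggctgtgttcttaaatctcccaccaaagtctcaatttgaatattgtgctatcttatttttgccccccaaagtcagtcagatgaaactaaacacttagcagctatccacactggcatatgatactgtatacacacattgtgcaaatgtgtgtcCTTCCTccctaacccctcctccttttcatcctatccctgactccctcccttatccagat
Adamts1: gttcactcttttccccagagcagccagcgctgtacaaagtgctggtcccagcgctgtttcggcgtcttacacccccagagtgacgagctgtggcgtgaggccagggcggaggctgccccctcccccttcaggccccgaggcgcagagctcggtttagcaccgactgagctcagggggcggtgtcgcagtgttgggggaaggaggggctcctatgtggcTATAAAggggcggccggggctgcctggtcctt
Mmp3 was the one member of the 8 with an AP-1 match, at position -46 from the start, a match that 6.75% of 32851 such windows hold. It also had a TATA box at -7 and a PEA3 match at -183. Ctsk had PEA3 matches at -232 and -59, which 29.5% of windows hold at least once, and Adamts1 a TATA box at -32, which 12.4% hold. The GC content was 37.6% for Mmp3 and 43.2% for Ctsk, below the median of 52.4% over all windows, and 65.6% for Adamts1, with 68% for Timp2 and 65.6% for Timp3. No member window held the cAMP response motif TGACGTCA, found in 1.55% of windows. A match is a run of letters and says nothing of binding.

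Levels are given as CPM, reads per 1000000 of the library size times the TMM factor, a scaling that matches the bulk of genes between sums. They measure a gene's share of the RNA read, not RNA per cell. All 5 fibroblast markers listed (Col1a1, Col1a2, Dcn, Lum, Pdgfra) were read in every sum, at 43123 to 163992 CPM together. Leukocyte markers summed to at most 5.84 CPM in any sum, with Ptprc and Laptm5 at 0. The 4 macrophage markers summed to 2.08 and 0 CPM in newborn sums and 170 and 45.7 CPM in young sums. In old sums they came to 11.5 and 26.8 CPM. Csf1r was the larger part in both young sums and in old experiment 1, and Cd68 in old experiment 2 (14.1 against 12.7 CPM). In newborn experiment 1 Cd68 was also above Csf1r. Adgre1 was at 0, and the part of these markers in the values below was not tested. Endothelial markers summed to 23.5 and 5.64, 81.9 and 44.4, and 74.2 and 63.2 CPM at these ages, with Cdh5 at 0. The remaining 6 marker lists summed to at most 70.9 CPM. Of the wells, 97.3% of newborn, 85.7% of young and 75.5% of old passed the cell filter.

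Young fibroblasts were compared with newborn ones to ask how the protease set changes as skin matures. Ctsk and Timp2 rose in young cells, the protease 7.89-fold and the inhibitor 5.02-fold, and no member was called lower. Mmp3 was almost absent from newborn cells and present in both adult ages. Timp3 and Adamts5 had 6.78 and 4.77 times the newborn mean without passing the test, Mmp2 and Timp1 had 2.26 and 2.23 times, and Mmp14, Mmp11 and Adamts1 differed least. So 2 of 10 members were called higher, against 0.719% of the 16684 genes tested, and 0 of 10 lower, against 0.0599%.

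**Figure D1:**
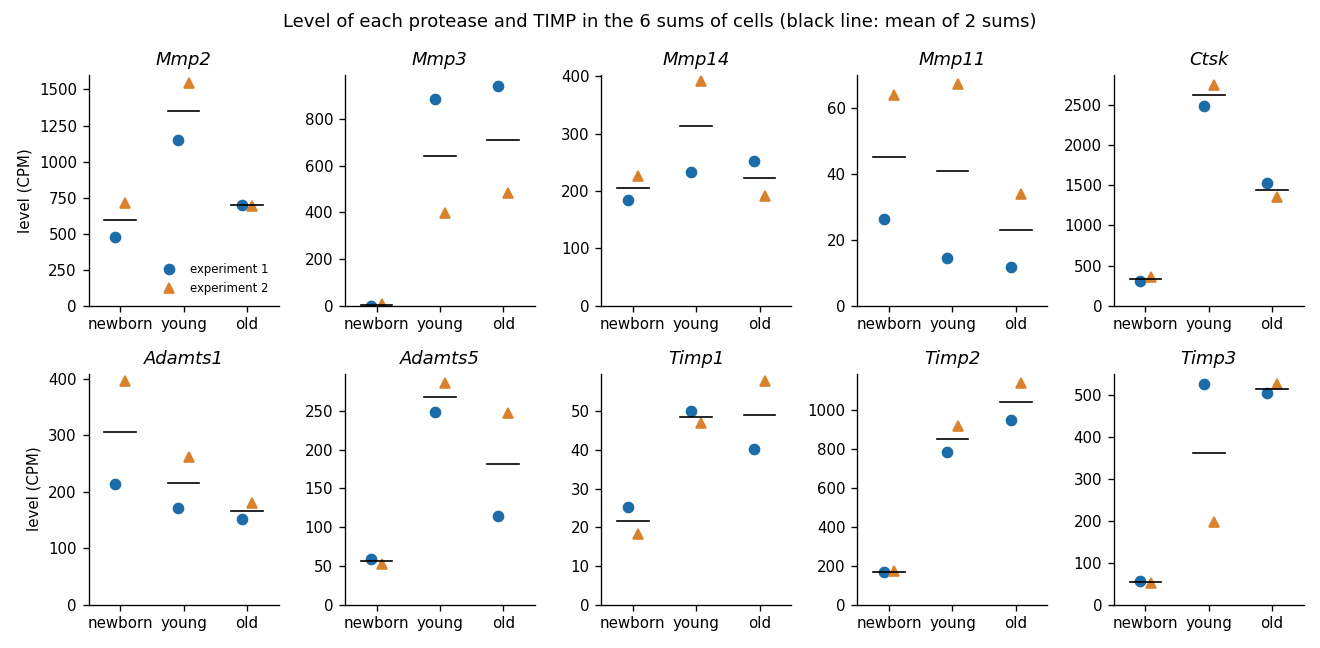
Level of each member in CPM (y axis, from 0, a scale of its own in each panel) in newborn, young and old cells; circles are sums of experiment 1, triangles of experiment 2, and black lines the mean of the 2 sums. Ctsk, Timp2 and Mmp3 lie far above newborn in both adult ages, and both old sums of Ctsk and Mmp2 lie below both young sums.

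Ctsk (ENSMUSG00000028111, chr3:95499256-95509362, plus strand, GRCm38) had 304 and 361 CPM in the newborn sums of experiments 1 and 2, 2488 and 2749 CPM in young sums, and 1521 and 1353 CPM in old sums. The 3 ages did not overlap, with newborn lowest and young highest. In young against newborn cells the log2 fold change was 2.98 ± 0.20 (SE), a ratio of means of 7.89, with an adjusted p of 0.0105 by edgeR's quasi-likelihood test and Benjamini-Hochberg adjustment. Timp2 (ENSMUSG00000017466, chr11:118301069-118355740, minus strand) had 166 and 172 CPM in newborn sums, 783 and 915 CPM in young sums, and 945 and 1138 CPM in old sums. Its 3 ages did not overlap either, but the order ran upward with age. Young against newborn it stood at 2.33 ± 0.21 on the log2 scale, 5.02 times as high, with an edgeR adjusted p of 0.0243. With the experiment as a block, both edgeR adjusted p-values became 0.0505, so neither was called there, and 0.15% of all genes were. Without any 1 sum neither was called, but those fits leave 1 sum in an age and call few genes or none. Both genes stayed higher in young cells in 6 of 6 such fits.

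Mmp3 (ENSMUSG00000043613, chr9:7445822-7455975, plus strand) had 2 and 1116 reads in the newborn sums, each from a single cell, and 887 and 398 CPM in young sums and 943 and 481 CPM in old sums. Every adult sum lay above the newborn sums, which stood at 0.01 and 7.83 CPM. The fitted log2 fold change in young cells was 7.36 ± 2.59 with an edgeR adjusted p of 0.323, and its size depends on how near 0 the newborn reads are. Timp3 (ENSMUSG00000020044, chr10:86300372-86349506, plus strand) had 55.5 and 51.2 CPM in newborn sums, 526 and 198 CPM in young sums, and 503.7 and 527 CPM in old sums, so that its young sums differed from each other more than its old ones. Young against newborn it stood at 2.76 ± 0.51 (log2, edgeR adjusted p = 0.128), and old against newborn at 3.27 ± 0.52 (adjusted p = 0.0847). Adamts5 (chr16:85856173-85901828, minus strand) had 59.4 and 52.7 CPM in newborn sums, 249 and 287 CPM in young sums, and 115 and 247 CPM in old sums. It was 2.25 ± 0.43 higher in young than newborn cells on the log2 scale (edgeR adjusted p = 0.137).

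Mmp2 (ENSMUSG00000031740, chr8:92827291-92853420, plus strand) had 477 and 716 CPM in newborn sums, 1146 and 1548 CPM in young sums, and 698 and 693 CPM in old sums. The young sums lay above all others, while old and newborn sums overlapped. Its log2 fold change in young against newborn cells was 1.18 ± 0.28, with an edgeR adjusted p of 0.208. Timp1 was low throughout, at 25.2 and 18.2 CPM in newborn sums, 50.0 and 46.9 CPM in young sums, and 40.1 and 57.7 CPM in old sums, both adult ages above newborn without overlap (young against newborn 1.16 ± 0.41 on the log2 scale, edgeR adjusted p = 0.313). Mmp14, the membrane enzyme, had 185 and 226 CPM in newborn sums, 234 and 392 CPM in young sums, and 252 and 192 CPM in old sums. Its young sums lay above the newborn ones and its old sums overlapped them. Mmp11 was the least read protease in adult cells, at 26.2 and 64.0, 14.5 and 67.4, and 11.9 and 34.0 CPM from newborn to old sums; it was higher in experiment 2 at every age, and the ages overlapped. Adamts1 had 214 and 397 CPM in newborn sums, 171 and 261 CPM in young sums, and 152 and 179 CPM in old sums. Apart from Mmp11 it was the only member whose mean was highest in newborn cells. Its newborn and young sums overlapped, and it was higher in experiment 2 at every age. Within experiments 1 and 2 young lay below newborn, by -0.32 and -0.61 on the log2 scale, and on plates it was lower in young on 6 and higher on 3. It lies 53059 bases from Adamts5 on chromosome 16, and young against newborn its log2 difference was -0.50 ± 0.39 (edgeR adjusted p = 0.693), beside 2.25 for Adamts5, neither called. In all, both young sums lay above both newborn sums for 8 of 10 members, against 22.1% of all genes tested, and below for 0, against 25.1%.

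In old against young cells, 0 of 10 members were called, and neither was any other gene: 0% of 16684 were called higher and 0% lower by edgeR. At an unadjusted p under 0.05 edgeR listed 810 of the 16684 genes tested, close to the number that this threshold lists when no gene differs. Ctsk (edgeR p = 0.00536) and Mmp2 (edgeR p = 0.0195) were among them, 2 of 10 members. DESeq2 called 398 genes higher (2.39%) and 650 lower (3.9%) in old cells, Ctsk and Mmp2 being the members called, both lower. The old sums stood below the young for Mmp2, Ctsk and Adamts5, 3 of 10 members against 15.9% of all genes, and above for Timp2, 1 of 10 against 15%. For Adamts5 this was by a narrow gap, 247.5 CPM in old experiment 2 against 248.6 CPM in young experiment 1. On plates Adamts5 was lower in old than young cells on 6 and higher on 3. The mean level in old cells was 0.549 times that in young cells for Ctsk (log2 -0.87 ± 0.19, edgeR adjusted p = 0.906) and 0.516 times for Mmp2 (log2 -0.95 ± 0.28, adjusted p = 0.906). Within experiments 1 and 2 the log2 difference was -0.71 and -1.02 for Ctsk and -0.72 and -1.16 for Mmp2, the same sign in both experiments.

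The other members showed smaller or less even differences between old and young cells. Timp2 was 0.29 ± 0.20 higher in old cells on the log2 scale (edgeR adjusted p = 0.934), by 0.27 and 0.31 in experiments 1 and 2. Timp3 was higher by 0.51 ± 0.47, but by -0.06 in experiment 1 and 1.41 in experiment 2. Without the young sum of experiment 2 the difference of Timp3 was -0.03. Adamts5 differed by -0.56 ± 0.41, with -1.12 and -0.21 in the 2 experiments, and Mmp14 by -0.50 ± 0.34, with 0.11 and -1.03. Adamts1 and Mmp11 had lower values in old cells in both experiments, with log2 differences of -0.17 and -0.54 for Adamts1 and -0.28 and -0.99 for Mmp11. Mmp3 (0.15 ± 1.96) and Timp1 (0.02 ± 0.40) showed no steady direction under other settings. The median log2 difference of the 7 proteases was -0.56 and of the 3 TIMPs 0.29, beside 0 over all genes tested.

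**Figure D2:**
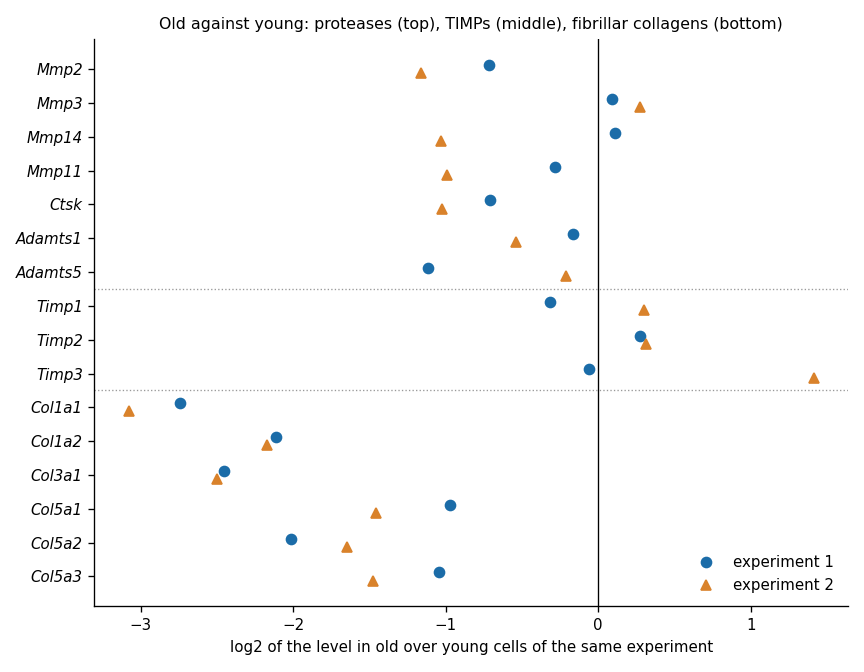
Log2 of the level in old over young cells within experiment 1 (circles) and experiment 2 (triangles) for the 7 proteases, the 3 TIMPs and the 6 fibrillar collagens; the vertical line marks no difference. Protease points lie mostly to the left of the line, the lowest being Mmp2 in experiment 2 at -1.16, TIMP points on both sides, the highest being Timp3 in experiment 2 at 1.41, and every collagen point to the left, Col1a1 the furthest at -2.74 and -3.08.

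Old cells were then set against newborn ones. Ctsk and Timp2 rose here too. Ctsk was 4.33 times as high (log2 2.11 ± 0.20, edgeR adjusted p = 0.0233) and Timp2 6.16 times (2.62 ± 0.21, adjusted p = 0.0183), so that 2 of 10 members were called higher, against 0.797% of all genes, and 0 lower, against 0.138%. With the experiment as a block Timp2 stayed called and Ctsk did not (adjusted p = 0.0646). Without any 1 sum neither was called, in fits that leave 1 sum in an age and call few genes or none. Both genes stayed higher in old cells in 6 of 6 such fits. The median log2 difference was 0.22 over the 7 proteases and 2.62 over the 3 TIMPs, beside -0.08 over all genes. Both old sums lay above both newborn sums for 6 of 10 members, beside 3609 of the 16684 genes tested. They lay below for 1, Adamts1 (log2 -0.88 ± 0.40, edgeR adjusted p = 0.390), beside 4281 of the genes tested. This comparison and that of young with newborn share the newborn sums.

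The 9 plates each held all 3 ages, and direction within plates was counted on the same cells. Ctsk and Mmp2 were lower in old than young cells on 9 of 9 plates. Of the 8 members with at least 100 CPM on average, these were the 2 lower in old on every plate, beside 3.08% of 1558 genes at that level, and 0 members were higher on every plate, beside 1.93%. Timp2 and Timp3 were higher in old cells on 7 of 9 plates, on all 4 of experiment 2. In young against newborn cells, Mmp2, Mmp3, Ctsk, Timp2 and Timp3 were higher on 9 of 9 plates, 5 of 8 members beside 22.5% of such genes, and 0 members were lower on every plate, beside 9.18%. Across plates Ctsk ran from 143 to 468 CPM in newborn, 2020 to 3720 CPM in young and 915 to 2314 CPM in old cells, so the old range reached into the young one and stayed clear of the newborn one. Mmp2 ran from 369 to 864, 907 to 1631 and 427 to 1057 CPM at the same ages. Plates are not mice, and cells of 1 mouse may lie on several.

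Per length of exon, which allows genes to be compared, cathepsin K RNA was the main protease RNA in adult cells. Ctsk held 46.9 and 40.0% of the summed CPM per kb of the 7 proteases in newborn sums, 63.8 and 68.2% in young sums, and 55.2 and 60.9% in old sums. Mmp2 held 33.0 and 35.6%, 13.2 and 17.2%, and 11.4 and 14.0% at these ages, so its share was largest in newborn cells although its level was highest in young ones. Mmp3 held 0.00125 and 0.729% in newborn sums, 19.1 and 8.29% in young sums, and 28.7 and 18.2% in old sums, so it was a sizeable part of the protease RNA in adult cells alone. Adamts1 was 9.41 and 12.6% of the newborn total and at most 2.31% in any adult sum. Among the TIMPs, Timp2 was the largest at every age, with 54.8 and 62.2% in newborn sums, 62.4 and 75.3% in young sums, and 69.4 and 69.2% in old sums. Timp4, the remaining family member, had no read in 735 cells, which allows a share of cells with a read of up to 0.408%.

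**Figure D3:**
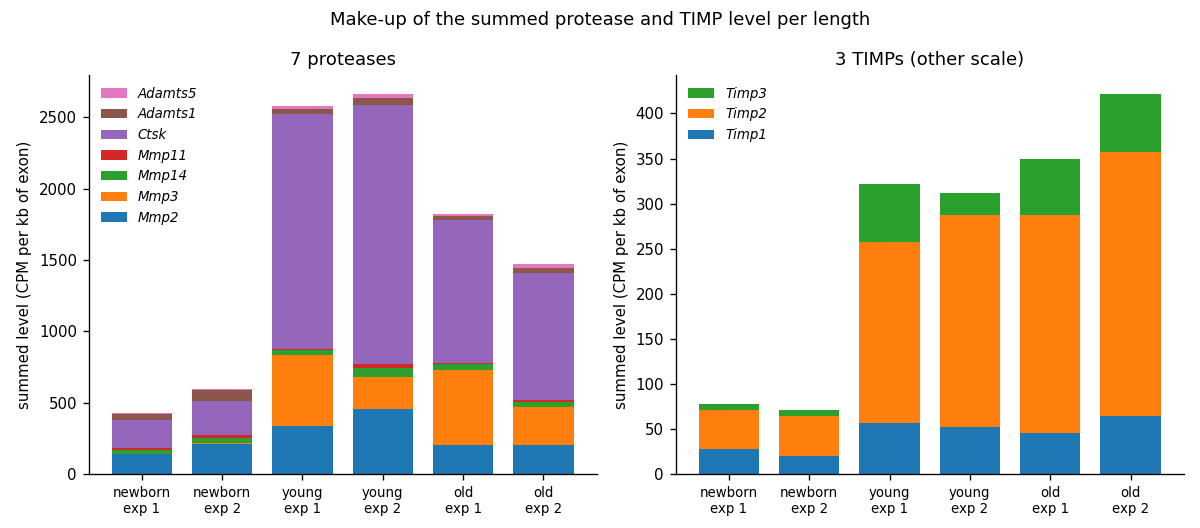
Summed level per kb of exon of the 7 proteases (left) and the 3 TIMPs (right, on its own scale) in each of the 6 sums, stacked by gene. Protease bars are tallest in young cells at 2578 and 2664 CPM per kb and TIMP bars in old cells at 350 and 422 CPM per kb.

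The 7 proteases summed to 429 and 596 CPM per kb in newborn sums, 2578 and 2664 in young sums, and 1822 and 1469 in old sums. The 3 TIMPs summed to 77.9 and 71.0, 322 and 312, and 350 and 422 CPM per kb. Both sums were higher in adult than newborn cells in each experiment, and they parted between young and old. The ratio of protease to TIMP RNA was 5.50 and 8.40 in newborn sums, 8.01 and 8.54 in young sums, and 5.21 and 3.48 in old sums. Old lay below young in both experiments, by -0.62 and -1.29 on the log2 scale (mean -0.96 ± 0.48 SD, n = 2 experiments). It did so on 9 of 9 plates, where the difference ran from -1.72 to -0.01 with a median of -1.21. Between young and newborn the difference was 0.54 and 0.02, and it changed sign without Ctsk (-0.45) or without the division by length (-0.52). Because TIMPs do not act on cathepsin K, the ratio was also taken over the 6 metalloproteinase and ADAMTS members: it was 2.92 and 5.03 in newborn sums, 2.90 and 2.71 in young sums, and 2.33 and 1.36 in old sums, again lower in old than young in both experiments, by -0.31 and -0.99. These ratios describe RNA of chosen genes, carry no test and do not measure enzyme activity.

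**Figure D4:**
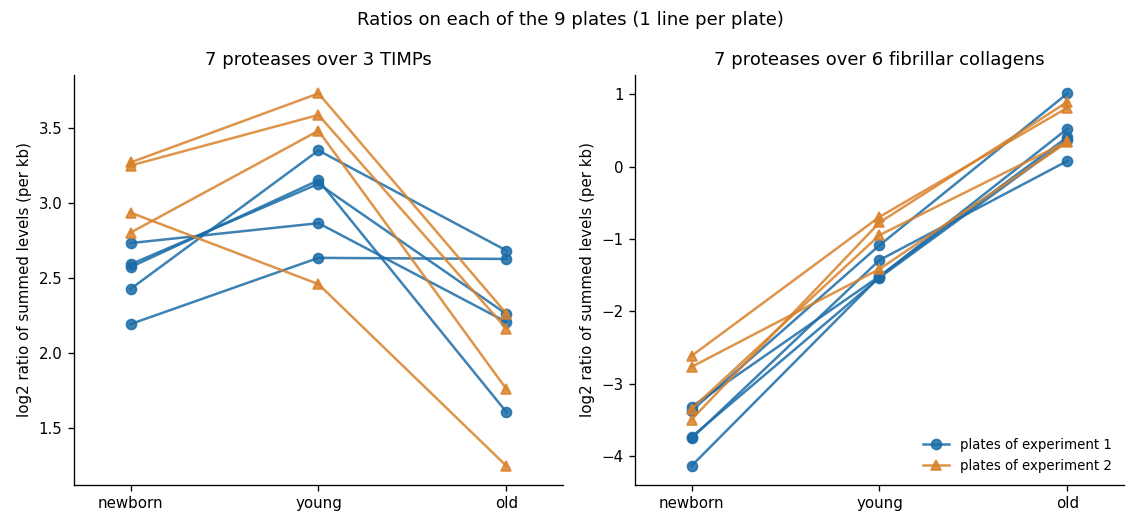
Log2 ratio of the summed level per kb of the 7 proteases over the 3 TIMPs (left) and over the 6 fibrillar collagens (right) in newborn, young and old cells, 1 line per plate, circles for experiment 1 and triangles for experiment 2. On the left every line goes down between young and old (the least by -0.01 on a plate of experiment 1); on the right every line goes up at both steps.

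Relative to fibrillar collagen RNA, the summed levels of proteases and of TIMPs were higher at each age step. Not every one of the 7 proteases acts on intact fibrillar collagen, so the collagens serve here as a common yardstick. The 7 proteases had 0.0784 and 0.13 times the summed level per kb of the 6 fibrillar collagen genes in newborn, 0.38 and 0.486 times in young and 1.45 and 1.56 times in old sums. The TIMPs had 0.0142 and 0.0155, 0.0474 and 0.0569, and 0.278 and 0.448 times. The size of these ratios rests on the division by exon length, 12426 bases for Col1a2 and 9816 for Col3a1 against 1512 for Ctsk. In CPM without that division, Col1a2 alone had 5431 and 4088 in old sums, where Ctsk had 1521 and 1353. Between old and young cells the protease sum itself was lower in old cells, and the collagens were lower by more: Col1a1, of type I collagen, had 2696 and 1538 CPM in old against 18036 and 13003 CPM in young sums. Col3a1, of type III, had 3609 and 3267 CPM in old against 19827 and 18461 CPM in young sums, a log2 difference of -2.48 ± 0.16 with an edgeR adjusted p of 0.128. Both old sums lay below both young sums for 6 of 6 fibrillar collagens, beside 15.9% of all genes, with a median log2 difference of -1.97, and 0 of 6 were called. Young against newborn cells, the collagens were divided. Col1a1, Col1a2 and Col5a3 were higher and Col3a1, Col5a1 and Col5a2 lower in both young sums, with 0 of 6 called. In old against newborn cells Col3a1 (log2 -2.85 ± 0.16, edgeR adjusted p = 0.00784), Col5a1 (-2.44 ± 0.23, 0.0260) and Col5a2 (-2.48 ± 0.25, 0.0293) fell, 3 of 6, beside 0.138% of all genes called lower. With the experiment as a block Col3a1 alone of these stayed called (edgeR adjusted p = 0.0250). Without any 1 sum Col3a1 was called in some fits and Col5a1 and Col5a2 in none. Those fits leave 1 sum in an age and call few genes or none, and all of these collagens stayed lower in old cells in 6 of 6.

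Single cells showed how each total was made up. Every cell was thinned to 100000 reads, which left out 0 cells, since the shallowest held 246349. A Ctsk read was found in 52.5 and 59.3% of newborn cells, 93.0 and 93.3% of young cells and 71.4 and 78.9% of old cells of experiments 1 and 2. In cells with a read, the median Ctsk level before thinning was 722 and 533 CPM in newborn cells, 2185 and 2166 CPM in young cells, and 1360 and 1127 CPM in old cells. Both the share of cells and the level in them were thus lower in old than young cells. Reads of Mmp2 came from 62.7 and 78.0% of newborn cells, 77.5 and 88.5% of young cells and 58.7 and 63.2% of old cells. Timp2 was read in 39.2 and 54.9%, 86.6 and 90.4%, and 84.9 and 90.4% of cells, and Timp3 in 12.7 and 18.7%, 57.7 and 44.2%, and 60.3 and 66.7%. For Timp2 the adult ages were alike in share, and the median level in cells with a read was 903 and 921 CPM in old against 659 and 703.9 CPM in young cells.

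**Figure D5:**
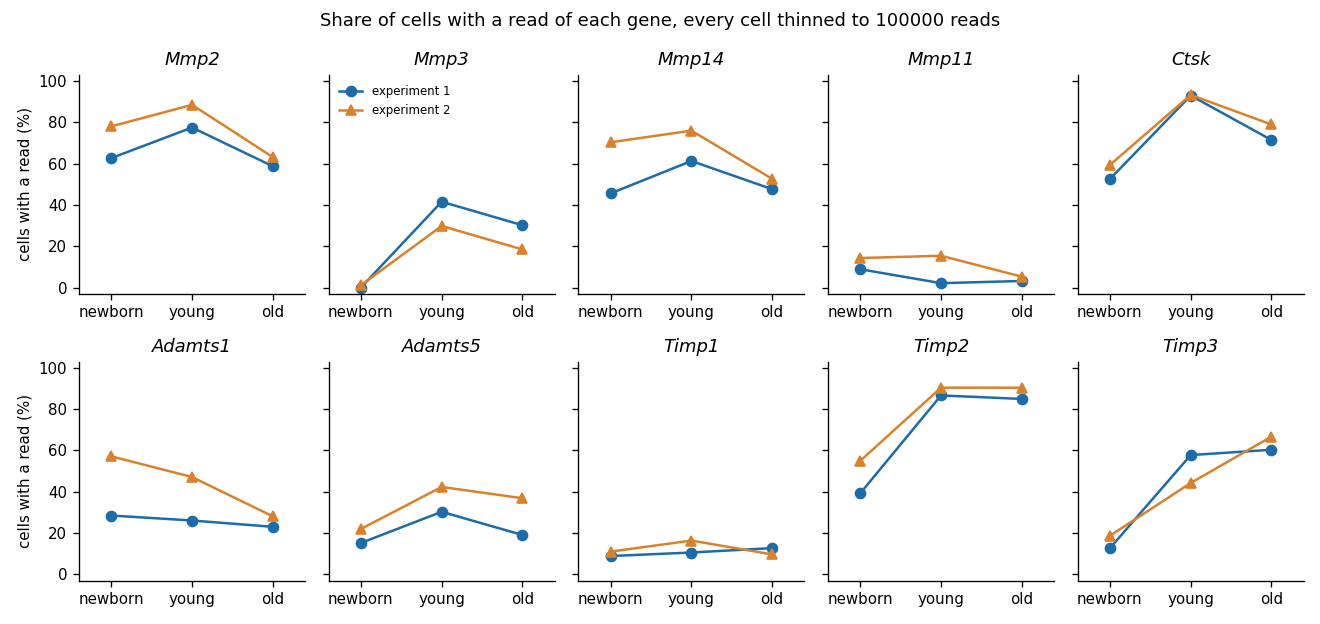
Share of cells with at least 1 read of each member (y axis, percent) in newborn, young and old cells of experiment 1 (circles) and experiment 2 (triangles), every cell thinned to 100000 reads. Mmp2, Mmp3, Mmp14, Ctsk, Adamts1 and Adamts5 are read in fewer old than young cells in both experiments, while Timp3 is read in more and Timp2 in nearly the same share.

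Mmp3 was a gene of a minority of adult cells. Before thinning it was read in 1 of 158 and 1 of 91 newborn cells, in 42.3 and 29.8% of young cells and in 30.2 and 21.9% of old cells. Although its summed level in old cells was close to that in young cells, 1 cell held 28.4 and 49.3% of all Mmp3 reads in the old sums, against 6.70 and 17.2% in young sums. Fewer old cells thus had a read of it, and the old level rested on few of them. After thinning, Adamts5 was read in 19.0 and 36.8% of old cells, against 30.3 and 42.3% of young cells, and Mmp14 in 47.6 and 52.6% of old cells, against 61.3 and 76.0% of young cells. Mmp11 and Timp1 were read in at most 15.4 and 16.3% of cells of any sum after thinning, and in young experiment 1 a single cell held 54.3% of Mmp11 reads, so their levels rest on few cells. Reads of Adamts1 came from 28.5 and 57.1% of newborn cells, 26.1 and 47.1% of young cells and 23.0 and 28.1% of old cells.

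A cell carried on average 2.74 and 3.87 of the 10 members in newborn cells, 4.87 and 5.43 in young cells, and 4.11 and 4.50 in old cells after thinning. Split by role, the mean number of the 7 proteases was 2.13 and 3.02, 3.32 and 3.92, and 2.53 and 2.83, and that of the 3 TIMPs 0.61 and 0.85, 1.55 and 1.51, and 1.58 and 1.67. The protease number was highest in young cells, and the TIMP number differed little between old and young cells. Before thinning the median number of all genes read per cell was 2192.5 and 2746 at the newborn age, 1968 and 2515.5 at the young age, and 1813.5 and 2137 at the old age. The median mitochondrial share of reads was 2.86 and 3.08% in old cells, above both sets of young cells (the lower at 2.32%), and 3.25 and 3.85% in newborn cells. Their part in the numbers of members read was not tested. Cells with a protease read but no TIMP read made up 43.0 and 31.9% of newborn cells, 5.63 and 4.81% of young cells and 5.56 and 3.51% of old cells. Within each age and experiment, members were weakly correlated over cells: of 45 pairs, 0 had a Pearson correlation of log2(CPM + 1) above 0.3 in all 6 sets of 91 to 158 cells. The 4 pairs above 0 in all 6 were Mmp2 with Ctsk (0.05 to 0.31), Ctsk with Timp2 (0.07 to 0.21), Mmp2 with Mmp14 (0.04 to 0.20) and Mmp14 with Ctsk (0.02 to 0.21), weak values in sparse counts that share library and depth.

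Other genes of the same pathways were taken from 10 lists. Of the other matrix metalloproteinases 9 of 19 passed the filter on low counts, and 1, Mmp27, a metalloproteinase gene 115420 bases from Mmp3 in the cluster on chromosome 9, rose in young cells: it had 814 and 904 CPM in young against 33.4 and 48.2 CPM in newborn sums (log2 4.4 ± 0.30, edgeR adjusted p = 0.0123). Mmp27 had 447 and 541 CPM in old sums, above newborn (3.60 ± 0.29, adjusted p = 0.0184) and below both young sums. Mmp23, the next most read, averaged 319 ± 13.5 CPM in newborn, 443 ± 112 CPM in young and 310.4 ± 17.7 CPM in old cells (SD, n = 2 each). Of the cathepsins and legumain 10 of 14 were tested and 1, the cysteine cathepsin gene Ctso, rose in both adult ages (2.71 ± 0.24 in young, adjusted p = 0.0223, and 1.86 ± 0.23 in old, adjusted p = 0.0429, both against newborn). With the experiment as a block Mmp27 stayed called in both adult ages (adjusted p = 0.0380 in young and 0.0388 in old) and Ctso in neither (0.0558 and 0.0930). Without any 1 sum both genes stayed above newborn at both ages in 6 of 6 fits. Those fits leave 1 sum in an age and call few genes or none, and Ctso was called in none of them and Mmp27 in almost none. Over all genes tested, 0.719% were called higher in young and 0.797% in old against newborn cells. Ctsb, Ctsl and Ctsh, the most read of that list, were not called: Ctsh had 189 and 89.4 CPM in newborn sums, 1121 and 966 CPM in young sums, and 529.5 and 482 CPM in old sums. In 5 further lists no gene was called in any comparison: the other ADAMTS proteases (14 of 17 tested, Adamts2 the most read), membrane ADAM proteases (8 of 8, Adam33), plasminogen activation (5 of 8, Plaur), other matrix and surface proteases (9 of 10, Htra1) and other inhibitors (6 of 8, Cst3). Adamts2, which trims the ends of procollagen, had 233 and 152 CPM in old against 534 and 671 CPM in young sums. Cst3, a cathepsin inhibitor, had 1715 and 1511 CPM in old against 1445 and 890 CPM in young sums. Its log2 difference was 0.47 ± 0.41, on the same side as that of Timp2, and edgeR called neither gene there.

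On the substrate side beyond the fibrillar collagens, 10 of 10 other fibroblast collagens were tested. Young against newborn, Col6a1 of type VI collagen (log2 -1.67 ± 0.19, edgeR adjusted p = 0.0437) and Col7a1 of the anchoring fibrils (-6.31 ± 0.41, adjusted p = 0.0105) fell. These were 2 of 10, beside 0.0599% of all genes called lower, and the list's median was -1.13, beside -0.07 over all genes tested. With the experiment as a block the edgeR adjusted p-values were 0.0800 and 0.0505, so neither was called there. Without any 1 sum neither was called either, in fits that leave 1 sum in an age and call few genes or none. Old against newborn, Col6a1, Col6a3 and Col7a1 fell, 3 of 10, beside 0.138% of all genes called lower. With the block none of the 3 was called (edgeR adjusted p 0.0511 to 0.0902). Without 1 sum Col6a1 and Col6a3 were called in none of the fits and Col7a1 in almost none. Old against young, 0 of 10 were called with a median of -0.70, beside 0 over all genes tested. Of 9 noncollagen substrates, among them Fn1, Fbn1 and Postn, none was called in any comparison. Their medians were -0.53 in young against newborn, -0.37 in old against young and -1.14 in old against newborn cells. Over all genes tested they were -0.07, 0 and -0.08.

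For each member, the gene with the most similar profile over the 27 plate and age sums was looked up among 2496 genes read in at least 25% of cells. The likest genes were Serping1 for Mmp3 (Pearson r = 0.97), Ly6e for Timp2 (0.97), Syn3 for Timp3 (0.95) and Ly6c1 for Ctsk (0.93). Serping1, the C1 inhibitor gene, averaged 215 CPM in newborn, 8761 CPM in young and 7750 CPM in old cells, and Ly6c1 56.9, 2373 and 2132 CPM, with both adult ages above newborn like their members. Weaker likeness was found for Timp1 (Neat1, 0.78), Adamts5 (Mt1, 0.78), Mmp2 (Cpz, 0.77), Adamts1 (Por, 0.71), Mmp11 (Gm6169, 0.71) and Mmp14 (Tnfaip6, 0.63). Cpz, a carboxypeptidase gene, averaged 218 CPM in newborn, 682 CPM in young and 249.8 CPM in old cells, with its highest level in young cells as for Mmp2. These sums share plates and scaling, and the correlations are given as descriptions.

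The likeness of Syn3 and Timp3 has to be read with their position. Timp3 lies inside the gene of Syn3, a synapsin, on the opposite strand, and 1733 of the 8144 exon bases of Timp3 are also exon bases of Syn3 in GENCODE M21. Syn3 reads were found in 274 cells, of which 273 (99.6%) also had Timp3 reads, against 13.2% of the cells without Syn3 reads. There were 22.0 and 15.7 Syn3 reads per 100 Timp3 reads in newborn sums, 34.2 and 48.1 in young sums, and 26.6 and 33.8 in old sums. Reads of the 2 genes cannot be told apart here where they share exons, and the strand setting of the counting is not given in the sources used. How far this moves the Timp3 level is not known. Timp1 lies likewise inside Syn1, which had 1066 reads in all, and Mmp11 and Timp2 overlap Chchd10 and Cep295nl, with 2149 and 1012 reads over all sums.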

How the data were processed

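The authors deposited unnormalized counts of reads for every gene in every well, with a table for each plate. Per the submitters' processing notes the build was GRCm38 and FastQC was run; aligner, counter and strand setting were not given in the sources used here. Of 1049 labelled columns 1044 held values. For 2 pairs of plates, taken as repeat runs, reads were added per well (183 wells), which left 861 wells on 9 plates. Cells with at least 50000 reads, 1000 genes and at most 25% mitochondrial reads were kept (735, with 246349 to 4331293 reads each), over 51777 genes common to all tables, 51633 of them matched to GENCODE M21. Sums per age and experiment were tested by edgeR 4.0.16 (R 4.3.3; TMM factors; filterByExpr; glmQLFit with robust set; a design of age alone; threshold 0.05 after Benjamini-Hochberg adjustment over 16684 genes; biological coefficient of variation 1.135, 3 residual degrees of freedom); SE is the log2 fold change over the square root of F. DESeq2 1.42.0 and limma 3.58.1 were alternatives. The experiment number is a batch the ages share per the labels, so a blocked fit was run too; deviations of same-numbered sums from their age means had correlations of 0.04 for old with young, 0.03 for young with newborn and 0.02 for old with newborn. CPM per kb divides by union exon length. Doublets were not called, as wells received sorted single cells. The members, lists and markers were chosen with earlier results of these data known; of the lists the text names genes called and up to 3 per list with the highest mean CPM.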

Additional observations from a re-analysis of the deposited data

Results flagged for a closer look

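Levels of the 10 members were compared over the 4 or 5 plates of each age and experiment, 60 groups in all, and in 7 of them 1 plate stood apart by Dixon's test on log2(CPM + 1); chance gives about 5% of groups. The number is the gap to the nearest plate divided by the range of the group. For Mmp2 in young cells of experiment 2 (0.905) 1 plate had 1313 CPM and the other 3 had 1598 to 1631 CPM. For Mmp3 in newborn cells the value was 1 in both experiments, since all reads lay on 1 plate of each, at 0.04 and 21.6 CPM. For Ctsk in newborn cells of experiment 1 (0.741) 1 plate had 143 CPM and the others 321 to 424.5 CPM, all below every adult plate. For Adamts1 in newborn cells of experiment 2 (0.862) 1 plate had 521 CPM and the others 377 to 394 CPM. For Timp1 in newborn cells of experiment 1 (0.864) 1 plate had 0.0919 CPM and the others 22.8 to 37.6 CPM. For Timp2 in newborn cells of experiment 2 (0.941) 1 plate had 69.5 CPM and the others 204 to 218 CPM.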

How the results depend on the processing

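The count of members called moved with the tool. In young against newborn cells it was 2 by edgeR on the 6 sums (0.779% of all genes called), 7 with DESeq2 (14.3%), 4 with limma on mean log2 values per cell (19.3%), 4 when only the 6970 genes read in at least 10% of cells of 1 age were tested (7.06%; added after seeing the data), and 0 with the replicate block (0.15%). In old against newborn cells it was 2 (0.935%), with 6 by DESeq2 (17.1%), 4 by limma (26.1%), 4 over the 6970 genes (7.89%) and 1 (Timp2) with the replicate block (0.306%). In old against young cells it was 0 (0%), with 2 by DESeq2 (6.28%). Leaving out each of the 6 sums in turn left no member called in any of the 3 comparisons. Those fits leave 1 sum in an age and call few genes or none. The replicate block changed no other member's call. DESeq2's size factors, no filter, thinned cells, the looser cell filter, the first run only and cells without lineage reads left the 3 counts within 1.5 times. Of 480 single log2 fold changes under an alternative, 411 kept direction and side of the threshold, 27 lost and 20 gained the call, and 22 changed sign; the cause was not tested. Sign changes were, on the log2 scale, Mmp11 in young against newborn cells with thinned cells (0.50) and without cells with lineage reads (0.00199); Mmp3 in old against young cells with thinned cells (-0.23), the first run (-0.0945) and limma (-1.08); Timp1 in old against young cells with thinned cells (-0.0708), without cells with lineage reads (-0.0111) and by limma (-0.12); and Mmp2 (-0.96) and Mmp14 (-0.61) in old against newborn cells by limma, under which the median of all genes was -0.38 there and -0.26 in young against newborn cells. Leaving out 1 sum, values ran from -1.64 to 0.65 for Mmp11 and -0.88 to 0.0157 for Adamts1 in young against newborn cells, from -0.43 to 0.84 for Mmp3, -1.79 to 0.66 for Mmp11, -0.27 to 0.24 for Timp1 and -0.0311 to 1.38 for Timp3 in old against young cells, and from -0.0416 to 0.55 for Mmp2 and -0.085 to 0.30 for Mmp14 in old against newborn cells.

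The log2 protease to TIMP ratio of young over newborn cells was 0.28, and -0.52 without division by length, -0.45 without Ctsk, -0.0178 without Timp1, 0.65 without Mmp2 and 0.72 without Timp2 (members left out and experiments left out were added after seeing the data). Of old over newborn cells it was -0.67, and -1.54 without division by length. Of old over young cells it was -0.96 and stayed below 0 under each of these settings. With 1 experiment alone it ran from 0.02 to 0.54 (young over newborn), -1.29 to -0.62 (old over young) and -1.27 to -0.08 (old over newborn). Precision is limited by 2 sums per age rather than by depth, and for Mmp3, Mmp11 and Timp1 by the few cells that hold their reads.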
